A study of Oryza sativa with 17 samples.

Results

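The cultivated rice Qishanzhan (QSZ) expressed a small set of genes for which the weedy rice WR04-6 gave no reads at any time. A gene was placed in the set when its FPKM, the fragments of a gene scaled to transcript length and to the mapped fragments of a library, was 0 in all 9 WR04-6 libraries, above 0 in all 8 QSZ libraries and at least 1 on average in QSZ. Of 23223 genes in the deposited table, 34 met these limits. The members were therefore chosen by their measured values in WR04-6 and QSZ, so the difference between the accessions is a description and is not tested. The study sampled seeds germinating at 10 °C, to compare low temperature germination (LTG) of the accessions. WR04-6 is a weedy accession (Oryza sativa f. spontanea) and QSZ an indica cultivar, and all seeds had been heated beforehand to break dormancy. Seeds were sampled on days 10, 12 and 14 of imbibition (days after imbibition, DAI), with 3 libraries for each accession and time point except QSZ at 10 DAI, which had 2 (replicates 2 and 3).

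Rice accessions can differ in which genes they carry as well as in how strongly they use them. Immune receptors and receptor-like kinases are among the plant gene families that vary most between accessions in presence, copy number and sequence. They include nucleotide-binding leucine-rich repeat proteins, which recognise pathogen molecules inside the cell, and wall-associated and lectin receptor kinases, which sit at the cell surface. Diterpene synthases, which rice uses to make gibberellins and defence compounds, also lie in tandem copies. Reads of both accessions were mapped to the same rice reference genome. A gene missing from WR04-6, a gene too different in sequence for its reads to map, and a gene that is not transcribed cannot be told apart in these values.

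The limits that gave the 34 members can be followed step by step. In the table, 496 genes (2.14%) were at 0 in every WR04-6 library, and 69 of them were above 0 in every QSZ library. Of these 69 genes, 35 had a QSZ mean under 1 and were left out. The same limits with the accessions exchanged gave 303 genes read only in WR04-6. Just inside the limit on the mean lay LOC_Os06g16140 (mean FPKM 1.03), LOC_Os02g49640 (1.24) and LOC_Os10g33750 (1.3). Just outside it lay LOC_Os09g10780 (0.979), LOC_Os09g09750 (0.977) and LOC_Os07g22510 (0.971). A further 8 genes missed the set only because exactly 1 WR04-6 library was above 0. The highest of these in QSZ were LOC_Os02g57860 (mean FPKM 17.9, with 0.138 in that WR04-6 library), LOC_Os05g46845 (12.3, with 0.253) and LOC_Os02g53835 (8.74, with 0.0119).

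Library depth overlapped between the accessions, and WR04-6 14 DAI replicate 3 lay below every QSZ library of 12 and 14 DAI. The part of depth in the zeros was not tested. All WR04-6 libraries were at 0 for every member. Their total estimated counts were 51209499 to 72494532, and those of QSZ 33280479 to 68909607, with both libraries of 10 DAI lowest (33280479 and 42313486). The most frequent value among counts of 1 to 12 was 4 in each library, so 1 fragment stood for about 4 counts, and 0 in all WR04-6 libraries allows up to 3 fragments or 12 counts over the 9. Against that floor, the members were at least 43.7-fold to 2976-fold higher in QSZ (median 252), and the bound was 100 or more for 28 of the 34. These bounds cover counting error only. They use the values by which the members were chosen, so they describe the difference between the accessions and do not test it. The seed character of the samples was checked with 42 genes described as glutelin, prolamin or oleosin, whose summed FPKM was 31175 to 99551 in QSZ libraries and 10368 to 33704 in WR04-6 libraries. None of the 34 members was among these genes. The 12 genes described as chlorophyll a-b binding proteins summed to 19.0 to 335 in QSZ and 58.7 to 349 in WR04-6, and none of them was at 0 throughout an accession.

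Most members were read at low levels. Their mean FPKM in QSZ ran from 1.03 to 99.4 with a median of 2.74, whereas the median over all 16833 table genes with a QSZ mean of at least 1 was 9.98. The genes read only in WR04-6 had a median of 4.53 in that accession. Only 7 members (20.6%) reached a mean of 10, against 49.9% of those genes. The spread over the 8 QSZ libraries was close to that of other genes, with a median coefficient of variation (CV) of 27.0% for the members and 24.4% for all genes with a QSZ mean of at least 1. The steadiest member was LOC_Os04g52210 (CV 9.83%) and the most variable LOC_Os06g24990 (CV 99.4%).

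**Figure D1:**
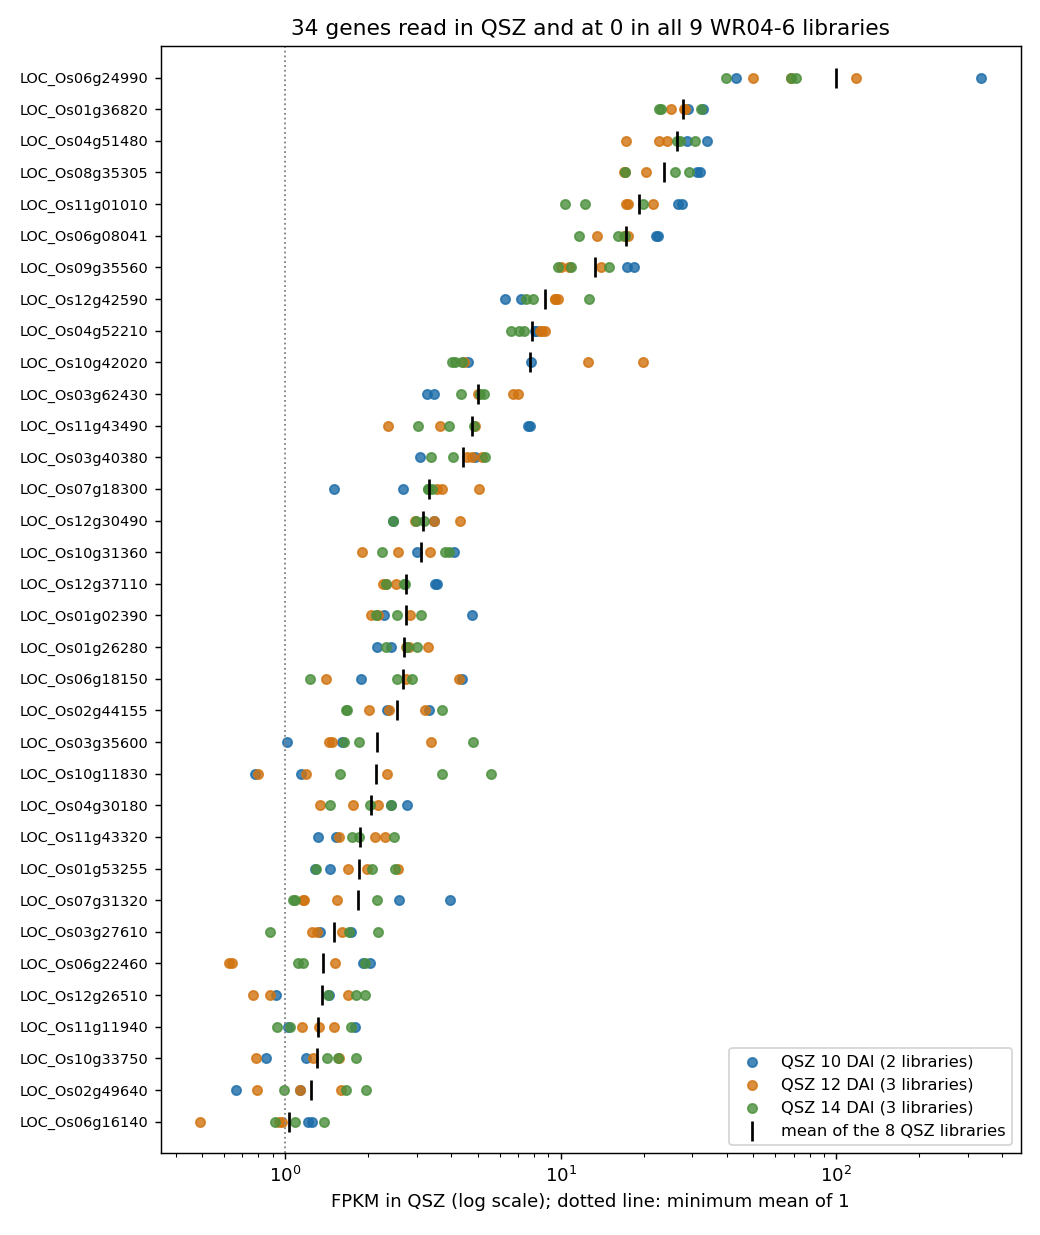
FPKM of the 34 genes in each of the 8 QSZ libraries, on a log scale, with the time point as colour and the mean as a bar. The means run from 1.03 for LOC_Os06g16140 to 99.4 for LOC_Os06g24990, whose point at 336 is 1 library of 10 DAI.

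The member with the highest level encodes a protein described as xylanase inhibitor protein 1. Such proteins belong to the chitinase fold family and block xylanases that microbes use to degrade plant cell walls. LOC_Os06g24990 (chromosome 6, 14641576 to 14642575) had FPKM 43.3 and 336 at 10 DAI, then 49.9, 68.3 and 118 at 12 DAI, followed by 71.6, 68.3 and 39.7 at 14 DAI. Replicate 3 of 10 DAI was far above the other 7 libraries, and the time points overlapped. In that library the chlorophyll a-b binding genes summed to 335, against 19.0 to 65.1 in the other 7 QSZ libraries, and their part in this value was not tested. The table holds 36 other genes with the same KEGG orthology entry (chitinase, K01183). Of these, 18 had a mean FPKM of at least 1 in WR04-6 and 20 in QSZ, so the entry as a whole was read in both accessions.

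Immune receptor genes among the members had low levels, with means of 1.31 to 1.87. LOC_Os11g43320 is described as Pik-2-like and LOC_Os11g11940 as RGA4-like, both names of intracellular immune receptors, and LOC_Os06g22460 shares their KEGG entry (K13457, disease resistance) without a described name. LOC_Os11g43320 had FPKM 1.31 and 1.53 at 10 DAI, then 2.31, 1.57 and 2.12 at 12 DAI, followed by 2.49, 1.75 and 1.85 at 14 DAI. LOC_Os11g11940 lay between 0.934 and 1.79 over the 8 libraries, and LOC_Os06g22460 between 0.627 and 2.02. By description, 2 members (5.88%) fell in the disease resistance group, which held 1.79% of the table. It held 5.28% of the genes read only in WR04-6.

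In that KEGG entry, more genes were higher in WR04-6 than in QSZ. Beside each member it held 132 others in the table, the other 2 members included, and 72 of these had a mean of at least 1 in WR04-6 and 37 in QSZ. All WR04-6 libraries lay above all QSZ libraries for 63 of them (47.7%), against 22.1% of all table genes. The opposite held for 9 (6.82%), against 5.43%. These 9 include the other 2 members, which were chosen for that difference, so this share is raised by the rule. In sum, the entry reached an FPKM of 147 ± 13.5 in QSZ (SD, n = 8) and 331 ± 33.5 in WR04-6 (SD, n = 9). LOC_Os09g09750, just outside the limit on the mean, also belongs to the entry and was at 0 in WR04-6.

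Receptor-like kinases formed the next group, with 3 members (8.82%) described as kinases against 4.64% of the table. Of the genes read only in WR04-6, 2.97% were described so. LOC_Os03g62430 is described as wall-associated receptor kinase 4, a type of kinase that binds pectin of the cell wall. It had FPKM 3.48 and 3.28 at 10 DAI, then 6.99, 6.71 and 5.02 at 12 DAI, followed by 5.28, 4.36 and 5.08 at 14 DAI, so the libraries of 10 DAI lay below all others. LOC_Os01g02390, described as rust resistance kinase Lr10 after a wheat gene for resistance to leaf rust, was at 2.05 to 3.11 in 7 libraries and at 4.77 in replicate 3 of 10 DAI. LOC_Os03g35600, a G-type lectin S-receptor-like kinase, ranged from 1.02 to 4.79. LOC_Os01g26280 has no described name but carries the GO term for serine/threonine kinase activity, and it varied little (2.15 to 3.29).

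The wall-associated kinase shared its description with a gene of the opposite pattern. LOC_Os04g24294, on chromosome 4, is the only other table gene described as wall-associated receptor kinase 4. Every QSZ library had it at 0, and its FPKM was 4.40 to 7.30 in WR04-6 (mean 5.36 ± 0.904, SD, n = 9). LOC_Os03g62430 on chromosome 3 had a mean of 5.02 ± 1.34 (SD, n = 8) in QSZ. Each accession was therefore read at 1 of the pair. These genes share a description, but their sequences were not compared. How reads divide between similar genes was not tested.

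Among enzymes, the best described member belongs to the diterpenoid pathway. LOC_Os04g52210 (chromosome 4, 31019367 to 31024260) is described as ent-kaurene synthase-like 3 (OsKSL3). Ent-kaurene synthases make the hydrocarbon from which gibberellins are built, and their relatives make the precursors of rice phytoalexins. It had FPKM 8.05 and 8.15 at 10 DAI, then 8.59, 8.77 and 8.39 at 12 DAI, followed by 7.35, 6.6 and 7.08 at 14 DAI, the most even profile of all members. The neighbouring LOC_Os04g52230, described as ent-kaur-16-ene synthase, was also higher in QSZ, at 5.72 to 11.9 against 0.434 to 1.02 in WR04-6. The gene between them, LOC_Os04g52220, was at 0 in every WR04-6 library and at 0 to 1.11 in QSZ. A further gene with the same KEGG entry (K04121), LOC_Os04g52240, was near 0 in both accessions, at most 0.171 in QSZ and 0.0577 in WR04-6. On the far side, LOC_Os04g52200 was read in both, at 11 to 20.1 in QSZ and 15.7 to 25.3 in WR04-6.

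Further members carry enzyme annotation without an enzyme name. LOC_Os06g08041 has the GO term for dioxygenase activity and a KEGG entry of flavonoid biosynthesis (K05278), the pathway of plant pigments such as anthocyanins. It had FPKM 22.2 and 22.5 at 10 DAI, then 17, 17.5 and 13.6 at 12 DAI, followed by 16.1, 17.1 and 11.6 at 14 DAI, with both libraries of 10 DAI highest. Its neighbours were read in both accessions, among them LOC_Os06g08060, described as SRG1, at 3.75 to 32.2 in QSZ and 4.72 to 16.7 in WR04-6. LOC_Os08g35305 carries the GO term for peroxidase activity and had FPKM 31.2 and 31.9 at 10 DAI, then 20.4, 16.9 and 17.1 at 12 DAI, followed by 17, 29.2 and 26 at 14 DAI. The gene ID in its description (LOC4345744) is listed in RefSeq (assembly ASM3414082v1) as a transcript of type misc_RNA, not as protein coding. LOC_Os03g27610, described as patatin-like protein 1, a lipid acyl hydrolase, lay between 0.882 and 2.17.

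A few members are copies of genes that every cell uses, and for these another copy was read in both accessions. LOC_Os11g01010 (chromosome 11, 1162 to 4165) is described as autophagy-related protein 8D, a ubiquitin-like protein that is joined to the membrane of the autophagosome. It had FPKM 26.8 and 27.6 at 10 DAI, then 17.6, 21.7 and 17.2 at 12 DAI, followed by 10.4, 19.97 and 12.3 at 14 DAI. The other 3 genes named ATG8 were well above it in QSZ and were read in WR04-6 too. ATG8A (LOC_Os07g32800) was at 116 ± 34.3 in QSZ (SD, n = 8) and 129 ± 9.53 in WR04-6 (SD, n = 9), ATG8B (LOC_Os04g53240) at 57.7 and 34.1, and ATG8C (LOC_Os08g09240) at 70.7 and 50.5. LOC_Os07g30110, which carries the same KEGG entry but is described as a spindle and kinetochore-associated protein, was at a mean of 0.99 in QSZ and 2.34 in WR04-6. ATG8D made up 7.15% of the summed FPKM of its KEGG entry (K08341) in QSZ. It overlaps LOC_Os11g01020, on the other strand, by 218 bases, and that gene was at 5.86 to 9.44 in QSZ and 1.54 to 3.63 in WR04-6. The library kit marked the strand, but no source used here says whether the counting took it into account.

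The same held for a Mediator subunit and a ribosomal protein. LOC_Os02g49640, described as subunit 11 of Mediator, the complex that links transcription factors to RNA polymerase II, was at 0.665 to 1.97 in QSZ. The other gene of that description, LOC_Os02g09600, had a mean of 42.1 ± 11.8 in QSZ (SD, n = 8) and 39.3 ± 3.48 in WR04-6 (SD, n = 9). LOC_Os12g30490, of the ribosomal protein L4/L1 family, was at 2.45 to 4.32 in QSZ. The 2 other genes of its KEGG entry (K02926) were read in both accessions, with means of 9.41 and 27.5 in QSZ and 10.4 and 33 in WR04-6. Over all members, 16 had another table gene with the same KEGG entry or described name, and 13 had such a gene at a mean of at least 1 in WR04-6.

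**Figure D2:**
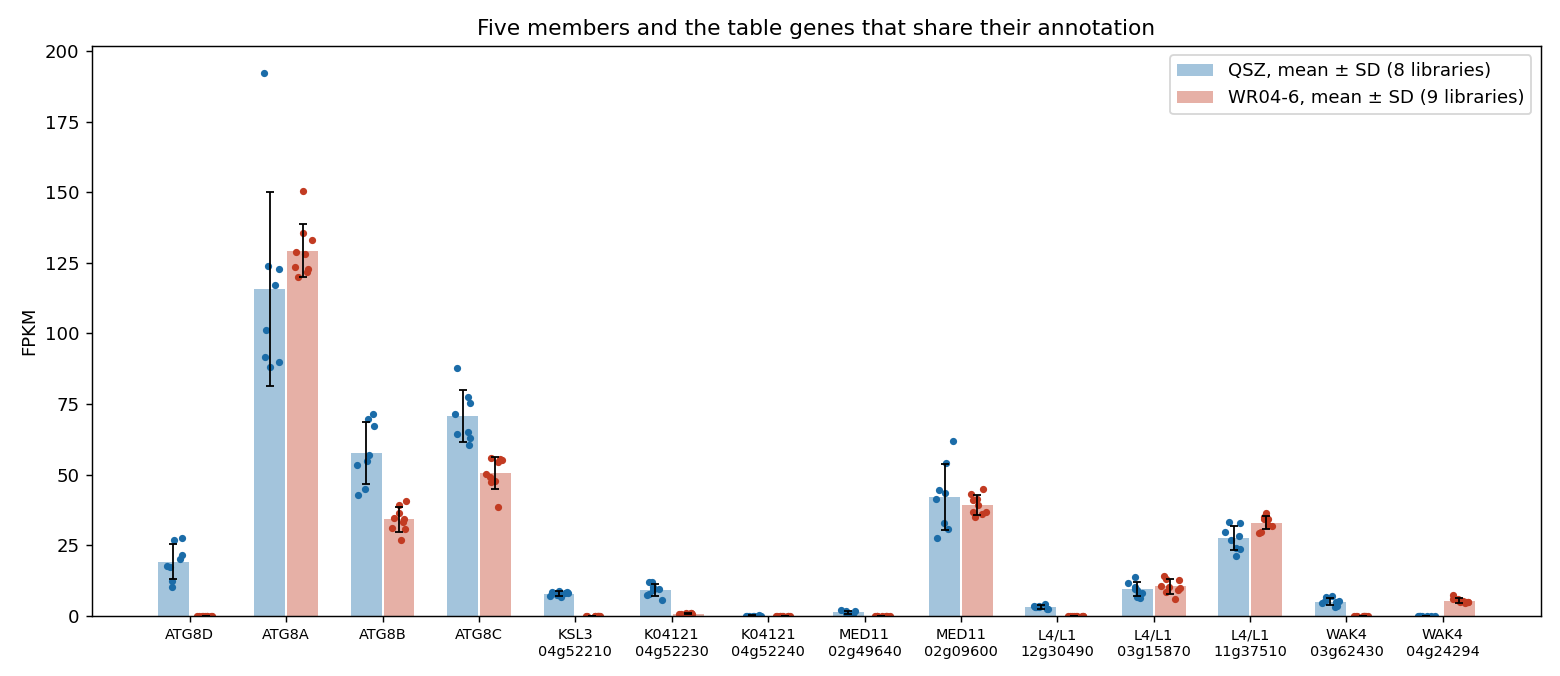
FPKM of 5 members (ATG8D, KSL3 at LOC_Os04g52210, MED11 at LOC_Os02g49640, L4/L1 at LOC_Os12g30490 and WAK4 at LOC_Os03g62430) and of the table genes that share their annotation, as means with SD and points for the 8 QSZ and 9 WR04-6 libraries. WR04-6 is at 0 for the members, while ATG8A (129), ATG8B (34.1) and ATG8C (50.5) were read there.

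Most of the remaining members have no functional description. By description, 11 members (32.4%) were unnamed proteins, against 28.1% of the table, and 10 more (29.4% against 10.1%) carried only a locus or clone identifier or no text, so that 21 of the 34 (61.8%) had no name, against 38.3% of the table. Only 16 members (47.1%) had a GO term, against 84.1% of all table genes, and 3 (8.82%) had more than 1 transcript model, against 25.6%. The median span of a member was 2504 bases, against 3237 over the table. The 303 genes read only in WR04-6 were likewise poorly described. Of these, 78.9% had no name and 33.7% a GO term, and their median span was 2492 bases. Of 6 members that could be matched to RefSeq by gene ID or synonym, 4 were protein coding and 2 (LOC_Os08g35305 and LOC_Os06g18150) were of type misc_RNA. By their descriptions, no member fell in the groups of transporters, ubiquitin and protease genes, DNA- and RNA-binding proteins or seed proteins. These groups were small and held 2.89%, 3.21%, 3.8% and 0.357% of the table. LOC_Os12g30490 does carry the GO term for RNA binding. LOC_Os12g37110, with an F-box domain, was at 2.27 to 3.56, and LOC_Os10g33750, described as a CACTA transposon protein, at 0.787 to 1.80.

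Several unnamed members were among the most abundant. LOC_Os01g36820 had FPKM 33 and 29.1 at 10 DAI, then 25.2, 28.2 and 28 at 12 DAI, followed by 23, 32.3 and 22.7 at 14 DAI. LOC_Os04g51480 had FPKM 28.7 and 33.8 at 10 DAI, then 17.3, 22.8 and 24.3 at 12 DAI, followed by 27.0, 30.6 and 26.5 at 14 DAI. Its lowest values were those of 12 DAI. LOC_Os09g35560 lay between 9.82 and 18.5 with both libraries of 10 DAI highest, and LOC_Os12g42590 between 6.27 and 12.7 with both of them lowest. LOC_Os11g43490 was at 7.58 and 7.72 at 10 DAI and at 2.35 to 4.90 in the later libraries. Of the other members without a name, LOC_Os03g40380 (mean FPKM 4.41), LOC_Os10g31360 (3.12), LOC_Os06g18150 (2.67), LOC_Os02g44155 (2.54), LOC_Os10g11830 (2.14), LOC_Os04g30180 (2.05), LOC_Os01g53255 (1.86), LOC_Os07g31320 (1.84) and LOC_Os12g26510 (1.36) were all below 5.

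LOC_Os10g42020, an expressed protein of unknown function, was high in particular libraries. It had FPKM 4.60 and 7.78 at 10 DAI, then 12.6, 19.9 and 4.47 at 12 DAI, followed by 4.03, 4.12 and 4.38 at 14 DAI. Replicates 1 and 2 of 12 DAI stood above every other library, whereas replicate 3 lay with the libraries of 14 DAI. Of the genes beside it, LOC_Os10g42040 was highest in the same library of 12 DAI as the member (replicate 2, 2.04), but it was at 0 in 4 of the 8 QSZ libraries. LOC_Os10g41999 was highest at 10 DAI replicate 3 (12.9) and at 14 DAI replicate 2 (6.11), and LOC_Os10g41980, described as RIR1a protein, was highest in the same library of 10 DAI (5.79). In contrast, LOC_Os06g25010, beside the xylanase inhibitor gene, followed the member library by library, with 44.3 and 374 at 10 DAI, then 62.6, 93.8 and 153 at 12 DAI, followed by 95.3, 80.2 and 49.9 at 14 DAI. LOC_Os06g25010 was at 0.417 to 3.15 in WR04-6 and so was not a member.

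**Figure D3:**
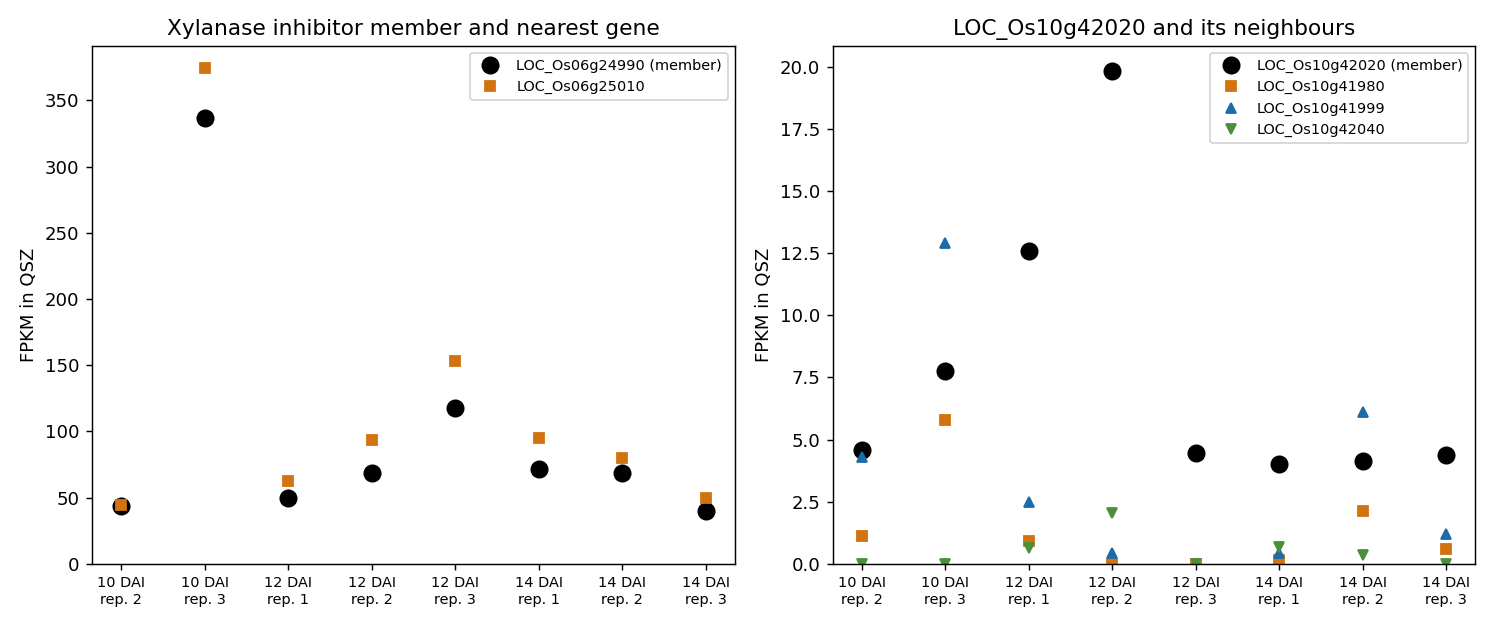
FPKM by QSZ library of LOC_Os06g24990 with LOC_Os06g25010, and of LOC_Os10g42020 with 3 nearby genes. The first pair is high together in replicate 3 of 10 DAI (336 and 374), whereas LOC_Os10g42020 is highest in replicate 2 of 12 DAI (19.9), where LOC_Os10g42040 is also highest (2.04) and LOC_Os10g41999 is at 0.442.

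The 34 members were scattered over the genome and formed no runs. They lay on 11 of the 12 chromosomes, with 5 on chromosome 6, 4 each on chromosomes 1, 3, 10, 11 and 12, and none on chromosome 5, which holds 8.38% of the table genes. Chromosomes 10, 11 and 12 together held 12 members, and each held 11.8% of the members against 5.24%, 5.40% and 5.67% of the table. The same chromosomes held 7.59%, 16.2% and 9.9% of the genes read only in WR04-6, also above the table shares. No member was next to another in chromosome order. The closest pair was LOC_Os11g43320 and LOC_Os11g43490, 115 kb apart with 3 table genes between them, and the median distance between consecutive members of a chromosome was 4.42 Mb. Of the 303 genes read only in WR04-6, 87 (28.7%) were next to another such gene, in 38 runs of up to 5 genes. The sets differ in size, and the difference between them was not tested.

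A member was at times part of a longer stretch at 0 in WR04-6 once genes of lower level were included. Of the 34, 4 lay beside another gene at 0 in all WR04-6 libraries, and of all 496 genes at 0 there 70 did (14.1%). The longest such stretch held LOC_Os06g16140 with LOC_Os06g16120, LOC_Os06g16150 and LOC_Os06g16160, whose QSZ means were 0.0965, 0.161 and 0.489. LOC_Os04g30180 lay beside LOC_Os04g30160 (mean 0.0518) and LOC_Os04g30110 (0.659), LOC_Os04g52210 beside LOC_Os04g52220 (0.390), and LOC_Os11g43320 beside LOC_Os11g43250 (0.00791). All these companions were below a mean of 1 in QSZ as well.

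Most genes that flank a member were read in WR04-6. There were 67 flanking genes, with a median gap of 13.7 kb, and 53 of them (79.1%) were above 0 in all 9 WR04-6 libraries, against 87.0% of all table genes. For 23 members every flanking gene was read in all WR04-6 libraries. Another 5 flanking genes (7.46%) were at 0 in all of them, against 2.14% of the table. QSZ and WR04-6 libraries stood apart without overlap for 38.8% of the flanking genes, against 27.6% of all table genes. WR04-6 was higher in 21 of these (31.3% against 22.1%) and QSZ in 5 (7.46% against 5.43%). The share higher in QSZ, the direction of the members, was thus near that of the table.

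Some flanks had the reverse pattern of the member beside them. LOC_Os12g26850, beside LOC_Os12g26510, was at 0 in all QSZ libraries and at 0.914 to 1.91 in WR04-6. LOC_Os12g37160, beside the F-box gene LOC_Os12g37110, was at 0 in QSZ and at 4.28 to 5.67 in WR04-6. LOC_Os06g24910, on the other side of the xylanase inhibitor gene, was at 0 to 0.491 in QSZ and at 8.08 to 14.5 in WR04-6. LOC_Os11g43420, beside LOC_Os11g43490, was at most 0.0201 in QSZ and at 1.11 to 1.80 in WR04-6. It is described as PIK6-NP-like, another name of an immune receptor. So are LOC_Os11g43250 and LOC_Os11g43390, the flanks of the Pik-2-like member LOC_Os11g43320. Those flanks had means of 0.00791 and 0.145 in QSZ, and their libraries overlapped between the accessions. Within that stretch of chromosome 11, the Pik-2-like member thus lay near 1 immune receptor gene of the reverse pattern.

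**Figure D4:**
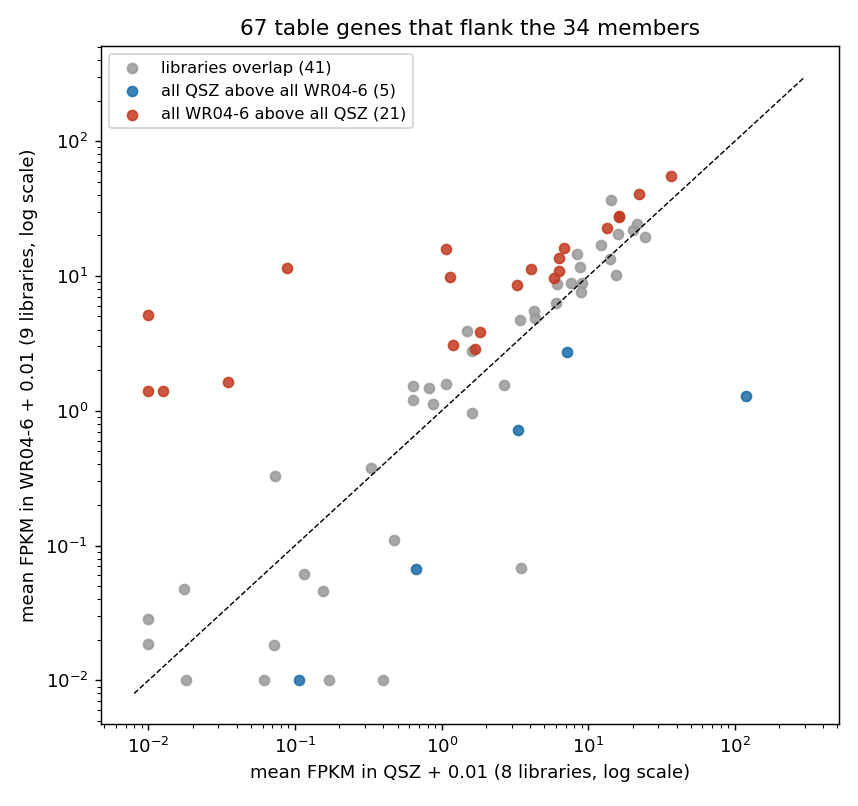
Mean FPKM of the 67 genes that flank the members, in QSZ (8 libraries) and WR04-6 (9 libraries), both with 0.01 added and on log scales, with the line of equal level. Of these, 41 overlap between the accessions, 21 are higher in WR04-6 and 5 are higher in QSZ, the highest of them LOC_Os06g25010 (mean 119 in QSZ).

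The choice of members did not compare time points, but it kept only genes above 0 in all 8 QSZ libraries. Genes at 0 at some time point were thus left out, a limit that the shares of all genes given here do not carry. Few members were called, at a share near that of all genes. The quasi-likelihood test of edgeR was run on the 8 QSZ libraries and 20677 genes, and a gene was called with an adjusted p (Benjamini-Hochberg) below 0.05 and a log2 fold change of at least 1 in either direction. In QSZ 12 DAI vs. 10 DAI, 2 of the 34 members (5.88%) were called, against 8.05% of all genes tested, and both rose (4.43% of all genes did). LOC_Os03g62430, the wall-associated kinase, rose by a log2 fold change of 1.003 (SE 0.194, adjusted p = 0.0222). LOC_Os07g18300, a gene with no described function, had FPKM 1.51 and 2.68 at 10 DAI, then 5.06, 3.71 and 3.56 at 12 DAI, followed by 3.30, 3.30 and 3.40 at 14 DAI, and rose by 1.11 (SE 0.255, adjusted p = 0.0312). For both genes the libraries of 12 DAI lay above those of 10 DAI without overlap, but the 2 libraries of 10 DAI were the shallowest of QSZ.

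These calls rested on few libraries and on small margins. Neither gene was called without 12 DAI replicate 1 or without 12 DAI replicate 2, although both fold changes stayed above 0. Over all genes, 2118 of 20571 and 387 of 20627 were called in these fits, against 1664 of 20677 with all libraries. LOC_Os03g62430 then had log2 fold changes of 0.91 and 0.92 with adjusted p-values of 0.0390 and 0.0674. LOC_Os07g18300 had 0.93 and 1.15 with 0.0570 and 0.0721. Leaving out replicate 2 or replicate 3 of 10 DAI left 1 library at that time point. The log2 fold changes were then 1.11 and 0.88 for LOC_Os03g62430, and 0.79 and 1.49 for LOC_Os07g18300. Without 12 DAI replicate 1, LOC_Os03g62430 passed the limit on p (0.0390) and missed only that on the fold change (0.91). Without 12 DAI replicate 1, LOC_Os06g22460 fell instead (log2 fold change -1.51, adjusted p = 0.0457, against -0.97 and 0.170 with all libraries). Without 12 DAI replicate 3 or 14 DAI replicate 2, LOC_Os07g18300 alone was lost (adjusted p = 0.0581 and 0.0509), and without 14 DAI replicate 1, LOC_Os03g62430 alone (log2 fold change 0.97). Both calls were kept only without 14 DAI replicate 3. With library totals in place of TMM scaling the median of all genes moved from -0.02 to -0.20, neither member was called, and the calls over all genes turned from 915 higher and 749 lower to 594 higher and 1009 lower.

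Other members did not pass the test between 10 and 12 DAI. As a whole, 16 had a fold change above 0 and 18 below it, and the median log2 fold change was -0.01, against -0.02 over all genes tested. At an unadjusted p below 0.05 there were 4 members (11.8%), against 32.5% of all genes. LOC_Os08g35305 had a log2 fold change of -0.67 (SE 0.210, adjusted p = 0.0705), with all libraries of 12 DAI below those of 10 DAI. LOC_Os07g31320, a hypothetical protein at 2.59 and 3.97 at 10 DAI and 1.16 to 1.55 at 12 DAI, had -1.22 (SE 0.522, adjusted p = 0.151).

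Between 12 and 14 DAI no member was called by edgeR, and neither was any other gene (0% of 20677). DESeq2 called 1 member among 306 genes and limma called no member. At an unadjusted p below 0.05 there were 3 members (8.82%), against 12.1% of all genes. LOC_Os10g42020 had the largest value, -1.65 (SE 0.474, adjusted p = 0.349), with its 2 high libraries at 12 DAI, and it was the gene called by DESeq2 (-1.63, adjusted p = 0.0484). OsKSL3 had -0.40 (SE 0.135, adjusted p = 0.364), and its 3 libraries of 14 DAI lay below those of 12 DAI. The median over the members was -0.09, against -0.00 over all genes.

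Between 10 and 14 DAI the result was alike, with 0 members and 0 genes (0%) called by edgeR, and 0 members by DESeq2 (437 genes) or limma. At an unadjusted p below 0.05, edgeR gave 5 members (14.7%), against 15.9% of all genes, and DESeq2 gave 8 members, with 3696 of all 20677 genes. ATG8D had -0.92 (SE 0.270, adjusted p = 0.207), with the libraries of 14 DAI below those of 10 DAI. The highest value was 1.87 for LOC_Os10g11830 (SE 0.741, adjusted p = 0.284), at FPKM 1.14 and 0.777 at 10 DAI and 1.58, 3.72 and 5.60 at 14 DAI. That gene was also the thinnest in counts, with 16 estimated counts, or about 4 fragments, in 1 library of 10 DAI. The lowest was -1.58 for LOC_Os06g24990 (SE 0.716, adjusted p = 0.331), whose replicate 3 of 10 DAI was at 336. The contrasts share libraries, so they are not independent of each other.

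**Figure D5:**
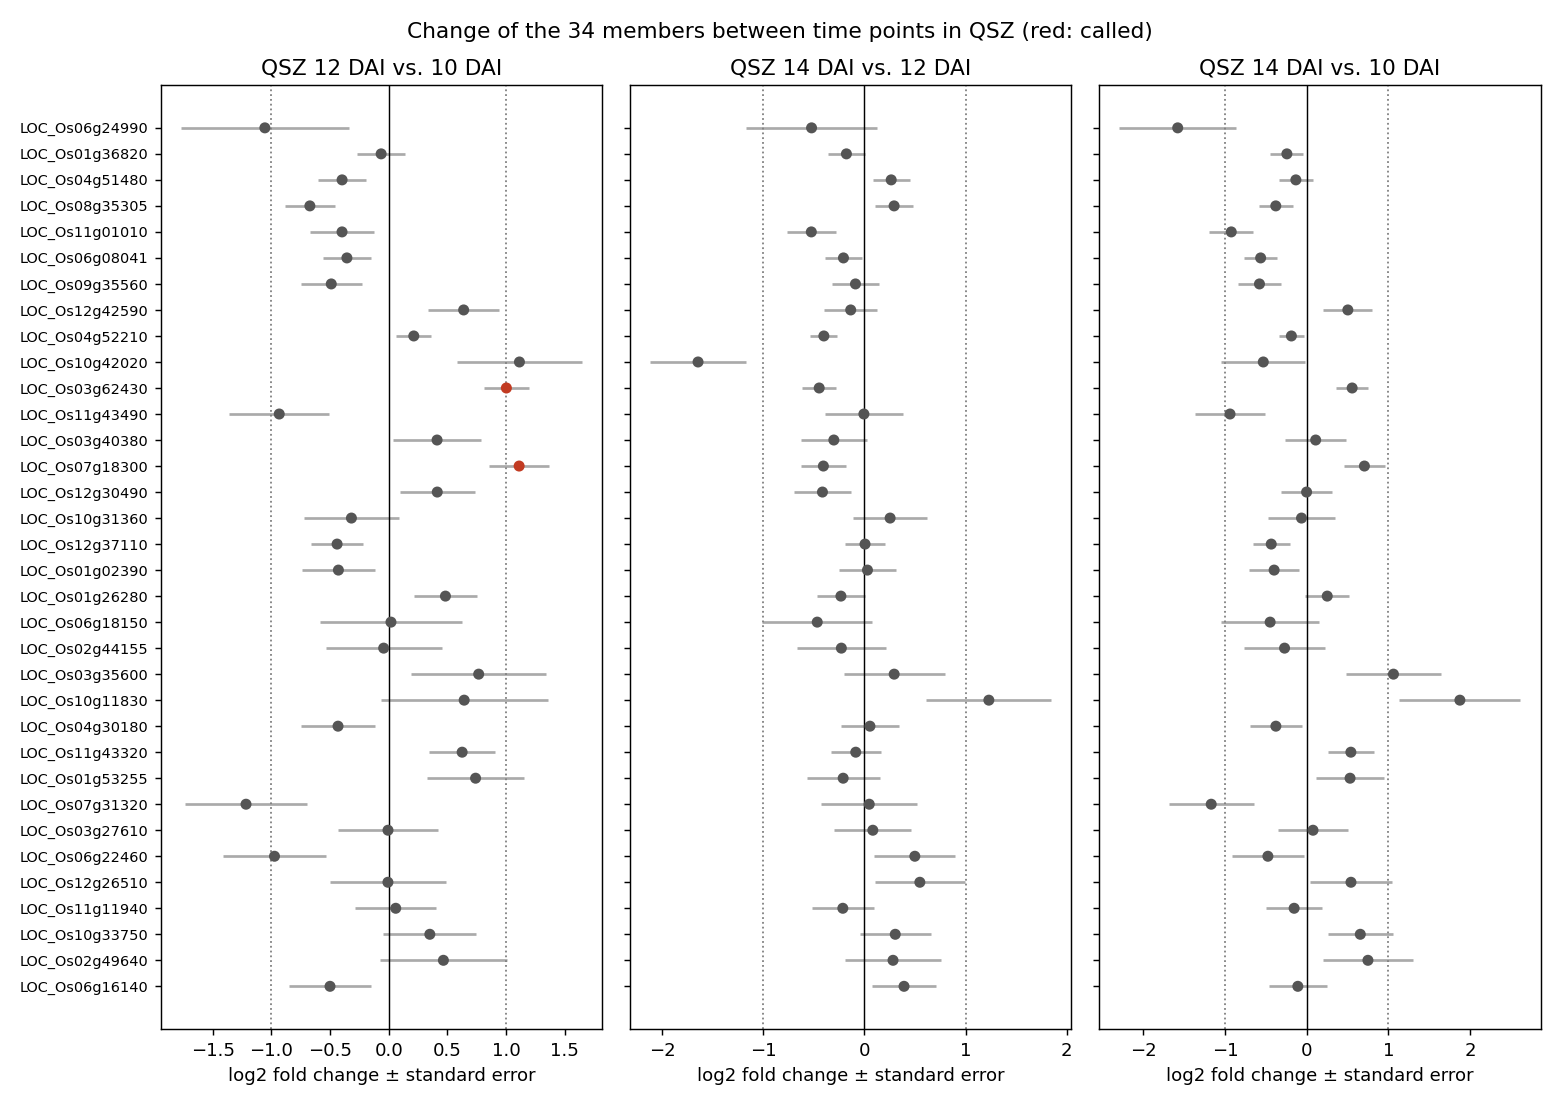
Log2 fold change with its standard error of the 34 members between time points in QSZ, from edgeR, ordered by mean FPKM, with dotted lines at 1 and -1. The 2 called members (red, LOC_Os03g62430 at 1.003 and LOC_Os07g18300 at 1.11) appear for 12 DAI vs. 10 DAI, and none is called in the other contrasts.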

How the data were processed

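Germinating seeds of WR04-6 and QSZ gave 17 polyA RNA libraries, with groups taken from the sample labels. The authors deposited FPKM and estimated count values per gene for MSU v7.0 rice gene models, and the submitters' processing notes name cutadapt 1.9, HISAT2 2.0.4 and StringTie 1.3.4d. No source used here names the program that made the counts, which are whole numbers.

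Members were taken from the FPKM. Time points were compared in QSZ with edgeR 4.0.16 (R 4.3.3) on the estimated counts, with TMM scaling and genes at FPKM 0.1 or more in at least 2 of the 8 libraries. The fit covered all such genes, and p-values were adjusted over all of them. DESeq2 1.42.0, limma 3.58.1, other scalings and filters, and fits without each library were alternatives. The members and lists were chosen with earlier results of these data known. The study states 3 biological replications, and p-values measure only the spread between these libraries.

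Genes were named by fixed rules, namely the 12 members of highest mean, called members, genes beside the limits, and up to 4 members of each description group. Flanking genes, genes of shared annotation and other members were chosen after their values were seen. Flanks are the nearest genes of the table in chromosome order. Genes sharing a KEGG entry or a described name were compared without a test. Names in RefSeq come from assembly ASM3414082v1, of which no coordinates were used. The QSZ library of 10 DAI replicate 1 was not analysed here.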

Additional observations from a re-analysis of the deposited data

Results flagged for a closer look

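Among the 8 QSZ libraries, 2 of the 34 members had a library far from the others, by the gap to the nearest library relative to the whole range. LOC_Os06g24990 was at 336 in 10 DAI replicate 3 and LOC_Os01g02390 at 4.77 in the same library. Chance alone gives about 1 such case in 20 groups, and the 8 libraries span 3 time points. The cause was not tested.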

How the results depend on the processing

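The number of members stayed between 24 and 44 under other limits, and between 34 and 39 when each library was left out in turn. The number in adjacent runs was 0 and became 2 with no minimum mean (LOC_Os06g16120 and LOC_Os06g16140). For 12 DAI vs. 10 DAI, the 2 called members became 1 with RLE scaling (1641 calls over all genes) and 1 with DESeq2 (2571). They became 1 with all 17 libraries (2887) and 1 with the time points alone (1258). With limma they became 0 at either pseudocount (1860 calls over all genes at 0.1 and 1625 at 1). They became 0 at an adjusted p below 0.01 (2 calls). They also became 0 with library totals (1603 calls), an alternative chosen after seeing the data. Without each library in turn the number was 0 to 2. For 14 DAI vs. 12 DAI, DESeq2 gave 1. With the replicate number as a block, 0 members were called in each contrast, and over all genes 1 was called for 12 DAI vs. 10 DAI. The labels do not say what the numbers pair. Of 7 same-numbered pairs of libraries 1 had a correlation of deviations above 0.1 (range -0.38 to 0.15). A pair with different numbers, 12 DAI replicate 1 and 14 DAI replicate 3, reached 0.41. Deviations from the mean of so few libraries depend on one another, so these values cannot show whether the numbers mark a pairing. Over all genes, 12 DAI vs. 10 DAI gave 1664 calls, against 2571 with DESeq2, 2887 with all 17 libraries and 2830 with no limit on fold change. It gave 2 at an adjusted p below 0.01. Without 1 library it gave 387 to 2118 calls where each time point kept at least 2 libraries. The later contrasts gave 0 calls, against 306 and 437 with DESeq2 and 66 and 360 with all 17 libraries, and 28 for 14 DAI vs. 12 DAI without 12 DAI replicate 1. The causes were not tested. Members with few counts limit what the time contrasts can show.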
